A study of Mus musculus with 3 samples.

Results

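The 10 glycolysis genes Slc2a1, Slc2a3, Hk2, Hk3, Pfkl, Aldoa, Pgk1, Pkm, Ldha and Eno1 were followed by symbol through 3 single-cell libraries of mouse peripheral blood (PB), in which 32245 different gene symbols were counted. The libraries came from naive Balb/C blood and from Balb/C blood on day 11 (D11) and day 14 (D14) after engraftment of BBC2 cells, and all 3 are labelled as wild type. BBC2 is a GFP-carrying line that was started with the fusion kinase BCR-FGFR1 in stem cells and grows as a pro-B-like stem cell leukemia/lymphoma (SCLL). In the study the recipients were female and 6 to 8 weeks old, the disease is a single cell line, and how many mice gave each library is not given in the sources used here. Red cells had been lysed and dead cells removed before loading.

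Glycolysis turns glucose into pyruvate in the cytosol and can run without oxygen. Glucose enters through carriers of the SLC2 family, is trapped by hexokinase, committed by phosphofructokinase, cleaved by aldolase, and yields ATP at the phosphoglycerate kinase and pyruvate kinase steps, after which lactate dehydrogenase regenerates NAD+. Neutrophils have few mitochondria and are known to rely on this route, and rapidly dividing leukemia cells are known to use it heavily.

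With 1 library per condition there was no replicate, so no test between conditions was possible, and a difference between conditions cannot be told apart from a difference between libraries. Every value below is a count of unique molecular identifiers (UMIs) added up across the cells of one class within one library and divided by all UMIs of that sum (CPM, the UMIs of a gene scaled to a fixed total of UMIs in each sum). Intervals are 95% and exact (Poisson for a CPM, conditional binomial for a ratio, Clopper-Pearson for a share), and they cover counting error only. A member was said to have risen or fallen, or to be past 2-fold, where the ratio of CPM reached 2 with at least 50 CPM on either side.

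The files held 5386, 8536 and 9337 barcodes with 30362408, 57640396 and 65861863 UMIs (naive, D11 and D14), of which 3811, 4567 and 4414 were kept at 200 genes or more and at most 10% mitochondrial UMIs. Cells were put into a class by at least 3 of its markers with a UMI and a lead of at least 2 over any other class, none of them a glycolysis gene, which placed 88.0% to 92.6% of kept cells. Neutrophil-like cells numbered 1309, 1650 and 1304, non-classical monocyte (ncMono)-like cells 134, 222 and 643, classical monocyte (cMono)-like cells 128, 222 and 121, and leukemia-like cells 3, 102 and 709, in that order. The 3 naive leukemia-like cells were not used. Of the 10 leukemia markers, 6 (Vpreb1, Igll1, Dntt, Sox4, Myb and Erg) were above 50 CPM at both times, whereas Rag1 and Rag2 lay at 0.266 to 1.26 CPM, Flt3 at 6.29 to 7.53 CPM and Cd34 at 0.942 CPM (D11) and 0 (D14). Between 3 and 5 kept barcodes were shared by any pair of libraries. Hemoglobin took 2.42%, 37.4% and 11.8% of the UMIs of kept cells, but no more than 5.76% in any neutrophil-like, monocyte-like or leukemia-like sum.

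Summed over the 10 members, neutrophil-like cells carried the highest level of the 4 classes in every library. The summed level there was 1813 CPM in naive blood, 2087 at D11 and 2064 at D14. Among neutrophil-like cells with at most 1 secondary granule marker, described further on, it went the other way, from 1774 CPM in naive blood to 1562 at D14, a log2 ratio of -0.18 (-0.28 to -0.09). cMono-like cells gave 1123, 1447 and 1834 CPM, ncMono-like cells 866, 999 and 1063 CPM, and leukemia-like cells 1650 CPM at D11 and 1418 at D14. The order of the classes by summed level was therefore neutrophil, leukemia, cMono and ncMono at D11, with leukemia and cMono exchanged at D14. That exchange rests on all cMono-like cells. For those with at most 1 cycling and at most 1 progenitor marker, described further on, the sum was 1090 CPM in naive blood and 1442 at D14. Their log2 ratio was 0.40 (0.29 to 0.52), and their D14 level lay close to the leukemia-like 1418 CPM. Slc2a3 made up 733 CPM of the neutrophil-like sum at D11 and 591 at D14, against at most 56.5 in the other 3 classes. Without this gene neutrophil-like cells were not the highest at D11 or D14. Per cell the order was different: leukemia-like cells held 51.5 and 45.2 member UMIs a cell against 8.45 and 9.92 in neutrophil-like cells. They also held more UMIs of all genes, at a median of 31052 a cell against 3882 at D14. B-like cells, the normal relatives of the leukemia, held 381 to 485 CPM, and erythroid-like cells 9.23 to 34.2 CPM. In such sums, more cells of a subtype and more RNA per cell of the gene cannot be told apart.

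**Figure D1:**
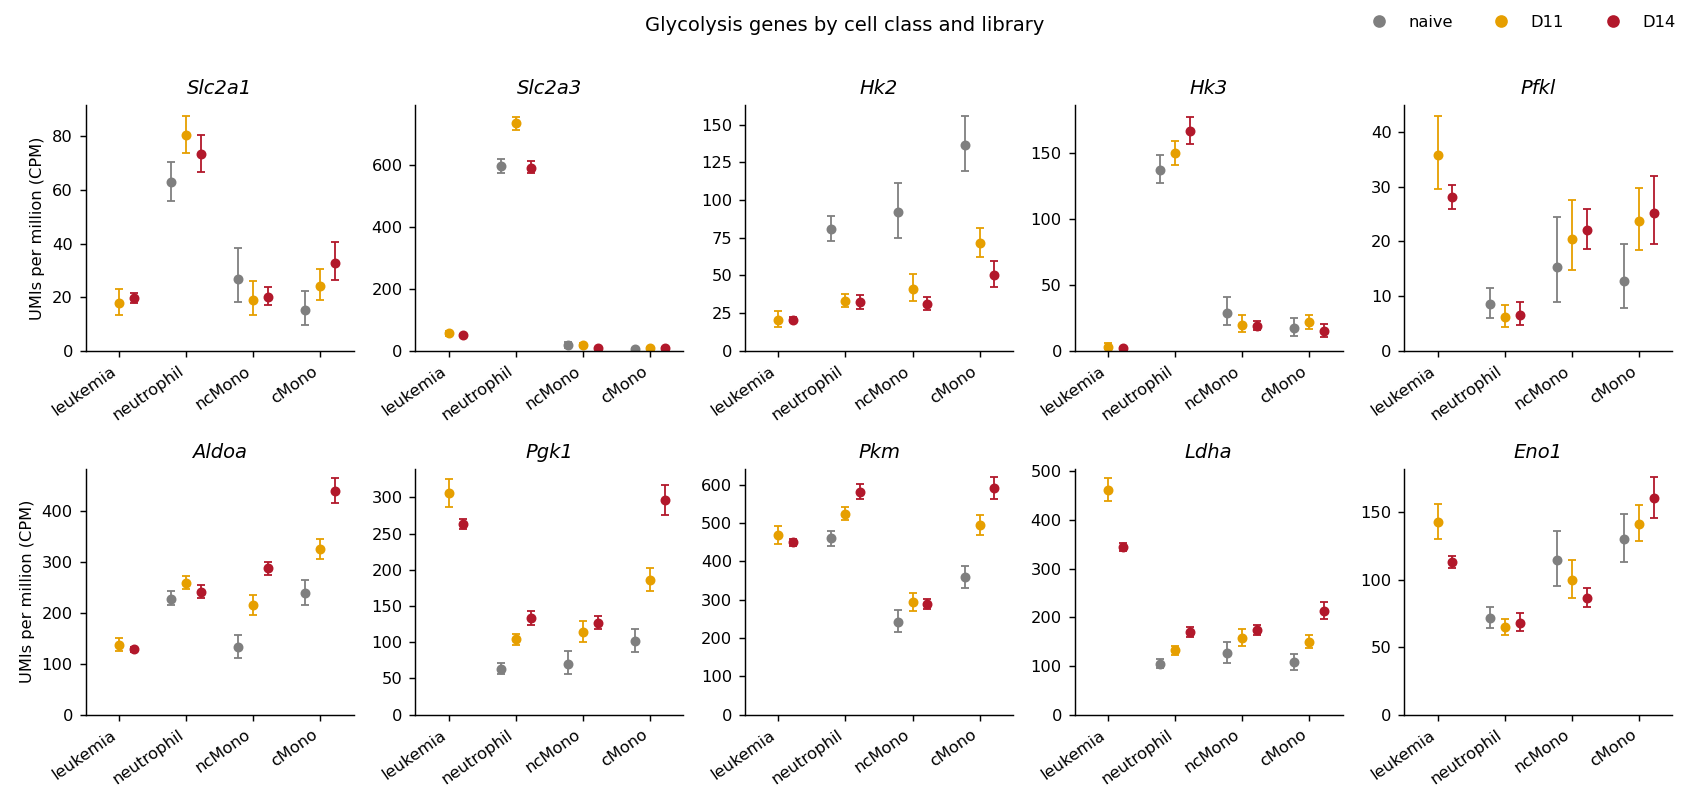
CPM of each of the 10 members (y axes, from 0, a scale of its own in each panel) in leukemia-like, neutrophil-like, ncMono-like and cMono-like cells, coloured by library, with exact 95% Poisson intervals as bars. Slc2a3 and Hk3 stand high in neutrophil-like cells, Hk2 is highest in the naive library in all 3 myeloid classes, and Ldha is highest in leukemia-like cells.

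The glucose carriers differed between the classes. Slc2a3 (chr6:122727809-122801640, minus strand, GRCm38), which encodes the high-affinity carrier GLUT3, was at 596 CPM (574 to 618) in naive neutrophil-like cells, 733 (713 to 754) at D11 and 591 (572 to 610) at D14. It was at 18.0, 19.4 and 8.28 CPM in ncMono-like, at 4.86, 9.20 and 8.51 in cMono-like, and, in leukemia-like cells, at 56.5 (D11) and 50.9 (D14). In each library the neutrophil level was the highest of the 4, with no overlap of the intervals. At D14 the leukemia-like level was lower than the neutrophil level by a log2 ratio of -3.54 (-3.63 to -3.44), and higher than the ncMono level by 2.62 (2.23 to 3.03) and the cMono level by 2.58 (1.99 to 3.24). The markers of neutrophils summed to 27.6 CPM in the D14 leukemia-like cells, with 8 of 8 detected and none above 50 CPM, against 24638 CPM in neutrophil-like cells. The same markers set the classes, so this difference was in part fixed in advance. Carry-over of Slc2a3 UMIs from neutrophils was not tested.

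After thinning every cell to 1000 UMIs, Slc2a3 had a UMI in 34.3%, 38.7% and 39.5% of neutrophil-like cells (naive, D11 and D14), with 16, 51 and 118 shallower cells left out. In cMono-like cells the thinned share was 0.781% in naive blood and 0 of 222 and 0 of 121 cells after engraftment, and in leukemia-like cells it was 8.82% and 4.39%. By a floor of 3 counts, these 0 values allow up to 1.35% and 2.48% of cells with a UMI at the thinned depth, which is no limit on cells expressing the gene. Without thinning, 6.31% and 14.0% of the same cMono-like cells had a Slc2a3 UMI. The unthinned shares were 61.2%, 64.4% and 68.2% of neutrophil-like cells, and 1.47% and 3.31% of erythroid-like cells at D11 and D14. The median depth of the erythroid-like cells was above that of the neutrophil-like cells, but hemoglobin took 91.2% and 89.4% of their UMIs. The depth left for other genes was thus far lower.

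Slc2a1 (chr4:119108711-119137983, plus strand), the widely expressed carrier GLUT1, showed a far narrower range. It was at 62.9, 80.7 and 73.4 CPM in neutrophil-like cells, 27.0, 18.9 and 20.3 for ncMono-like, 15.2, 24.3 and 33.0 for cMono-like, and 17.9 and 19.8 in leukemia-like cells. The leukemia-like level was below that of B-like cells, which stood at 51.8, 68.6 and 88.5 CPM, the log2 ratio being -1.94 (-2.42 to -1.47) in the D11 library and -2.16 (-2.70 to -1.56) in the D14 library. The ncMono-like and leukemia-like intervals overlapped in both. Of the UMIs of both carriers together, Slc2a1 made up 9.55% to 11.0% in neutrophil-like cells, 24.1% and 28.0% in leukemia-like cells, and 49.4% to 79.5% in the 2 monocyte classes. These shares compare classes and are not a comparison of the 2 genes' transcript levels.

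The hexokinases divided the myeloid classes in another way. Hk3 (chr13:55005985-55021385, minus strand), a hexokinase known from myeloid cells, was at 137, 150 and 167 CPM in neutrophil-like cells. The ncMono-like values were 28.8, 19.9 and 18.8 CPM and the cMono-like values 17.0, 21.7 and 15.2, with overlapping intervals. Leukemia-like cells held 3.14 CPM (10 UMIs) at D11 and 1.95 CPM (44 UMIs) at D14, the lowest of the 4 classes, and the D14 level was lower than in neutrophil-like cells by a log2 ratio of -6.42 (-6.89 to -5.99).

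Hk2 (chr6:82725025-82774454, minus strand), the inducible hexokinase bound to mitochondria, fell from naive to D14 blood in all 3 myeloid classes. In neutrophil-like cells it was at 80.7 CPM (72.9 to 89.2) in naive blood, 33.2 (29.0 to 37.9) at D11 and 32.4 (28.1 to 37.2) at D14. In ncMono-like cells the values were 91.8 (74.9 to 111), 41.3 (33.0 to 51.1) and 31.4 (27.3 to 35.9). In cMono-like cells they were 137 (119 to 156), 71.3 (62.1 to 81.5) and 50.4 (42.2 to 59.6). In each class the naive library was above both leukemic libraries with no overlap of the intervals. The log2 ratios of D14 to naive were -1.32 (-1.57 to -1.07), -1.55 (-1.90 to -1.20) and -1.44 (-1.76 to -1.13), and those of D11 to naive -1.28, -1.15 and -0.94 (neutrophil, ncMono and cMono). Only 22 of the 121 D14 cMono-like barcodes were free of 3 or more markers of a second class, against 81 of 128 in naive blood, and with those alone the cMono ratio was -0.77 and no longer past 2-fold. Counted as UMIs per cell in place of CPM, the D14 to naive ratio was -0.93 in neutrophil-like and -0.65 in cMono-like cells, where the 2-fold call was lost, and -1.21 in ncMono-like cells. In leukemia-like cells Hk2 lay at 20.7 and 20.8 CPM.

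The third hexokinase, Hk1, the housekeeping form and not one of the 10 members, did not follow Hk2. It was at 40.3, 42.4 and 56.0 CPM in neutrophil-like cells, 38.7, 33.5 and 30.6 in the ncMono-like sums, and 41.3, 37.1 and 51.5 for cMono-like cells. As a share of Hk1 and Hk2 UMIs together, Hk1 went from 33.3% (29.5% to 37.3%) in naive neutrophil-like cells to 56.0% at D11 and 63.4% (59.2% to 67.4%) at D14. The same share was 29.7%, 44.8% and 49.4% for ncMono-like and 23.2%, 34.2% and 50.5% for cMono-like cells, so that the naive library was lowest in each class. Leukemia-like cells stood at 71.8% and 70.7%.

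**Figure D2:**
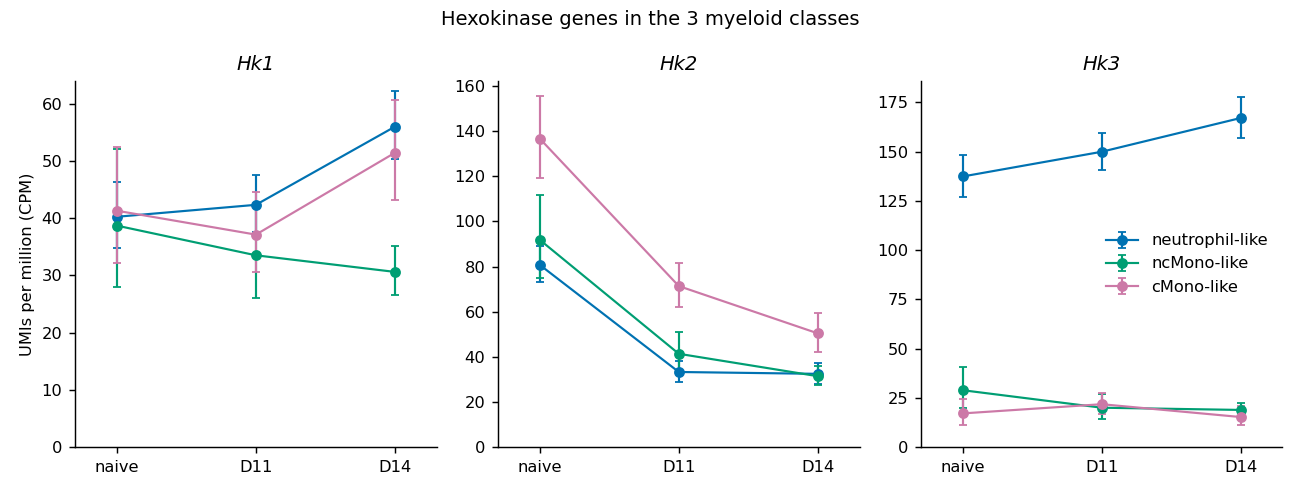
CPM of Hk1, Hk2 and Hk3 (y axes, from 0, a scale of its own in each panel) in the 3 myeloid classes in naive, D11 and D14 blood, with exact 95% Poisson intervals; lines join the libraries of a class. Hk2 goes from 80.7 to 137 CPM in naive blood to 31.4 to 50.4 CPM at D14, Hk1 stays between 30.6 and 56.0 CPM, and Hk3 is high in neutrophil-like cells.

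Of the enzymes downstream, Pgk1 (chrX:106187100-106203699, plus strand), the first ATP-yielding kinase of the route, had a higher level after engraftment in each myeloid class. Neutrophil-like cells held 63.5 CPM (56.6 to 71.0) in naive blood, 104 (96.3 to 112) at D11 and 133 (124 to 142) at D14. ncMono-like cells held 70.2 (55.5 to 87.7), 114 (99.6 to 129) and 127 (119 to 136) CPM. cMono-like cells held 101 (86.7 to 118), 186 (171 to 202) and 296 (276 to 317) CPM. The naive library was the lowest in all 3 classes, with no overlap of its interval with those of D11 or D14. The D14 to naive log2 ratio was past 2-fold in neutrophil-like cells at 1.07 (0.88 to 1.26) and in cMono-like cells at 1.55 (1.30 to 1.79), and was 0.85 (0.52 to 1.21) in ncMono-like cells. Leukemia-like cells, at 306 CPM (D11) and 263 CPM (D14), were above neutrophil-like and ncMono-like cells in both libraries, and at D14 differed from cMono-like cells by only -0.17 (-0.28 to -0.06). D14 cMono-like cells with at most 1 cycling and at most 1 progenitor marker, described further on, held 185 CPM, below the leukemia-like level.

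Pgk1 and Hk2 moved in opposite directions in the sums of the myeloid classes, which need not mean in the same cells. Among neutrophil-like cells with at most 1 secondary granule marker, described further on, the interval of the Pgk1 ratio included 0. The 250 bases upstream of the start sites of both genes are shown with those of Ldha, which was at its highest in leukemia-like cells at D11 and D14. Pfkl also ranked highest there at both times, with intervals that overlapped those of the next class. The sequences are from RefSeq (GRCm38.p6), 5′ to 3′ on the strand of the gene, and capitals mark ACGTG on either strand, the core letters bound by hypoxia-inducible factors. GCGTG, the other form of that core, was searched on both strands and is not in these 3 windows. ACGTG overlaps the E-box CACGTG, which reads the same on both strands and therefore counts as 2 matches.
Pgk1 (chrX:106186850-106187099, plus strand): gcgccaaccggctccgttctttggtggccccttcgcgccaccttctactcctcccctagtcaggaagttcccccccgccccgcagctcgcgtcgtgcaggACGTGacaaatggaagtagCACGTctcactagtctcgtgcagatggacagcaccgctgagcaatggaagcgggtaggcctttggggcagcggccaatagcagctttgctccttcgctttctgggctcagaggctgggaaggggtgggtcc
Hk2 (chr6:82774455-82774704, minus strand): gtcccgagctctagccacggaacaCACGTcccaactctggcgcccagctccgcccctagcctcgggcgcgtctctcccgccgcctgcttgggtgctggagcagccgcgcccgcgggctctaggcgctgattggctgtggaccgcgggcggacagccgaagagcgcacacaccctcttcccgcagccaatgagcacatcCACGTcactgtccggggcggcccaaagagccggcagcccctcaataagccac
Ldha (chr7:46845554-46845803, plus strand): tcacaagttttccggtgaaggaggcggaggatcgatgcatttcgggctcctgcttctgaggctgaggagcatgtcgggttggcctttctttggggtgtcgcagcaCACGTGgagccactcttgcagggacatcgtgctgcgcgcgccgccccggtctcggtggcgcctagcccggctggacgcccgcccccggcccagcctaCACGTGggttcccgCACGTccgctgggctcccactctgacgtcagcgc
Pgk1 and Hk2 each had 2 matches to ACGTG, and Ldha had 5, from 2 E-boxes and 1 further match. No other member with a promoter had as many: Slc2a1, Hk3, Aldoa and Pkm had at most 1 at a start, and Pfkl and Eno1 had 0. Counted in the same way, 6.81% of all 32851 promoters of that length had 2 or more matches to ACGTG. Ldha has 2 start sites in RefSeq, and the one with the most matches is shown, while the other had 0 matches to ACGTG and 1 to GCGTG. RefSeq promoters were matched for 9 of the 10 members, with 15 start sites. Of these, 13 had ACGTG or GCGTG within 250 bases, while 38.6% of all 32851 promoters of that length had one of them. Some windows of Eno1 and of Aldoa overlap and share the same matches, so the start sites are not independent and enrichment was not tested. Both Hk2, which fell, and Pgk1, which was higher, had these letters in the window shown.

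Aldoa (chr7:126795234-126800751, minus strand), the main aldolase outside liver and brain, was past 2-fold in ncMono-like cells and in neither other myeloid class. It stood at 132, 215 and 288 CPM there, a D14 to naive log2 ratio of 1.12 (0.88 to 1.37). In cMono-like cells it was at 239, 325 and 440 CPM with a ratio of 0.88 (0.71 to 1.05), and in neutrophil-like cells at 228, 260 and 242 CPM with a ratio of 0.08 (-0.03 to 0.20). Among neutrophil-like cells with at most 1 secondary granule marker, described further on, the Aldoa ratio was -0.49 (-0.80 to -0.20). Without the barcodes holding markers of a second class, the cMono ratio was 1.01 and past 2-fold, on 22 cells at D14. A second Aldoa identifier in the files had 0, 0 and 12 UMIs and was added to the first. Leukemia-like cells held 138 and 128 CPM, the lowest of the 4 classes at D14, and were below ncMono-like cells by a log2 ratio of -1.17 (-1.25 to -1.09) and cMono-like cells by -1.78 (-1.88 to -1.68).

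Ldha (chr7:46841475-46855627, plus strand), the lactate dehydrogenase subunit that favours lactate formation, was at 461 CPM (438 to 486) in leukemia-like cells at D11 and 344 CPM (337 to 352) at D14. Neutrophil-like cells held 105, 132 and 169 CPM, ncMono-like cells 126, 157 and 173, cMono-like cells 108, 150 and 214, and B-like cells 54.5, 55.9 and 76.3. In both leukemic libraries the leukemia-like level was therefore the highest, at a D14 log2 ratio of 1.03 (0.94 to 1.12) over neutrophil-like, 0.99 (0.90 to 1.08) over ncMono-like, 0.69 (0.57 to 0.81) over cMono-like and 2.17 (1.61 to 2.80) over B-like cells. The ratios over neutrophil-like and ncMono-like cells lie at the 2-fold threshold itself, on either side of it. The D14 to naive log2 ratios of Ldha were 0.69 (neutrophil), 0.46 (ncMono) and 0.99 (cMono). It was -0.00 (-0.40 to 0.37) among neutrophil-like cells with at most 1 secondary granule marker, described further on. For cMono-like cells with at most 1 cycling and at most 1 progenitor marker it was 0.45 (0.08 to 0.81).

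Its partner subunit Ldhb was not found in the leukemia-like cells, with 0 UMIs against 1470 of Ldha at D11 and 7770 at D14, nor in any B-like sum. In neutrophil-like cells Ldha made up 97.9% to 99.5% of the UMIs of both genes. In cMono-like cells Ldha went as a share of both from 64.8% (58.9% to 70.5%) in naive blood to 73.4% at D11 and 89.3% (86.7% to 91.6%) at D14, with Ldhb at 58.3, 54.2 and 25.5 CPM. Among cMono-like cells with at most 1 cycling and at most 1 progenitor marker the difference was smaller, with 156 UMIs of Ldha to 87 of Ldhb in naive blood and 106 to 28 at D14, and an Ldhb log2 ratio of -0.63 (-1.30 to -0.00).

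Pkm (chr9:59656368-59679375, plus strand), the pyruvate kinase of most tissues, was at 460, 524 and 582 CPM in neutrophil-like cells, 242, 293 and 287 in ncMono-like, 358, 494 and 591 in cMono-like, and 468 and 449 in leukemia-like cells, and at D14 the intervals of cMono-like and neutrophil-like cells overlapped. Eno1 (chr4:150236721-150248879, plus strand), the enolase of most cells, was at 71.6, 64.7 and 68.2 CPM in neutrophil-like cells, 114, 99.6 and 86.5 in ncMono-like, 130, 141 and 160 in cMono-like, and 142 and 113 in leukemia-like cells. Eno1 has a near-identical retrogene, Eno1b, which held at most 6.66 CPM in these classes. How reads that match both genes were counted was not examined, and the low Eno1b level sets no limit on their loss. Pfkl (chr10:77986947-78010083, minus strand), the liver-type phosphofructokinase subunit, was below 50 CPM in all 4 classes. It was at 8.51, 6.14 and 6.54 CPM in neutrophil-like cells, below the other 3 classes at D11 and D14, whereas in naive blood the interval overlapped those of both monocyte classes. Leukemia-like cells stood at 35.8 and 28.1 CPM, and at D14 their interval overlapped that of cMono-like cells (25.2 CPM).

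In D14 against naive blood, 2 members were past 2-fold in each myeloid class, 1 in each direction. In neutrophil-like cells these were Pgk1 and Hk2 of 9 members at 50 CPM, where 7.61% of all tested genes rose and 10.4% fell. In ncMono-like cells they were Aldoa and Hk2 of 6 members, against 3.14% and 2.79% of all genes, and in cMono-like cells Pgk1 and Hk2 of 6, against 4.65% and 3.94%. Over the members at 50 CPM the log2 ratios had a median of 0.22, 0.35 and 0.80 in the 3 classes, and over all tested genes of -0.26, 0.01 and 0.03. The D11 and D14 ratios share the naive library. As UMIs per cell the members past 2-fold were 2 higher and 0 lower in neutrophil-like, 2 and 1 in ncMono-like, and 5 and 0 in cMono-like cells.

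**Figure D3:**
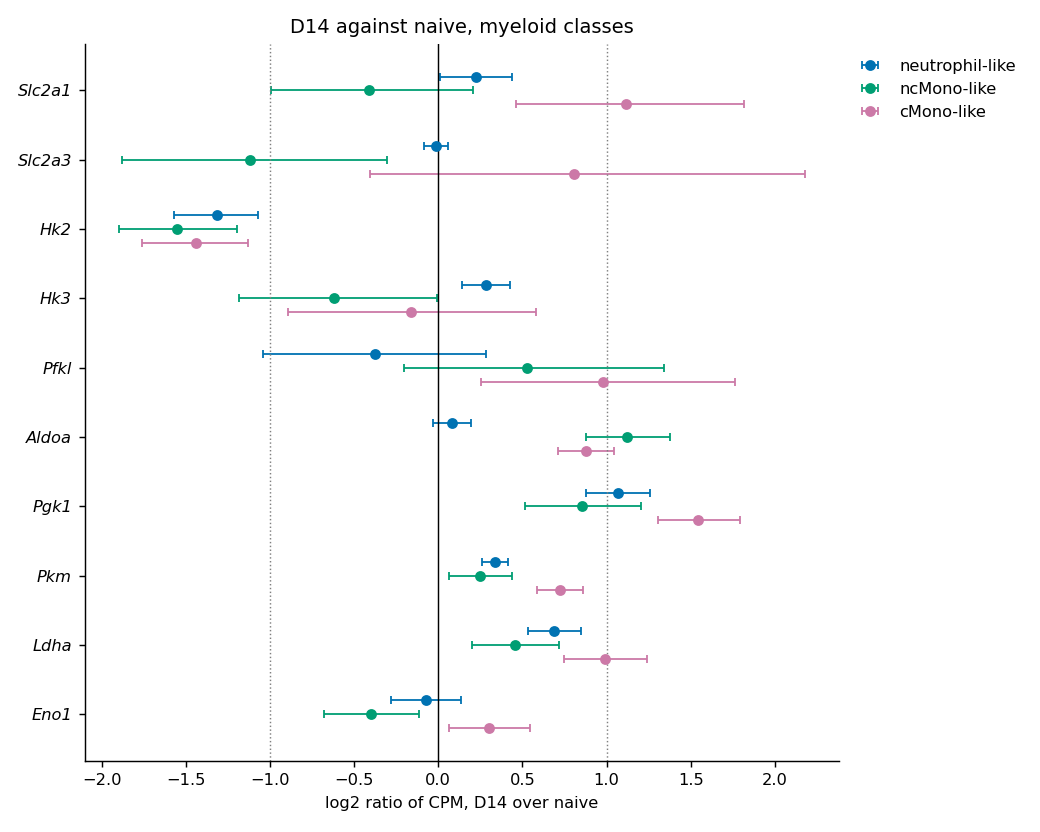
log2 ratio of CPM at D14 over naive (x axis) for each of the 10 members in neutrophil-like, ncMono-like and cMono-like cells, with exact 95% conditional binomial intervals; the solid line marks no difference and the dotted lines 2-fold. Hk2 lies below -1 in all 3 classes, Pgk1 between 0.85 and 1.55, and Aldoa differs by class, from 0.08 in neutrophil-like to 1.12 in ncMono-like cells.

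The kind of neutrophil in the blood differed between the libraries. Cells with at least 3 of 7 secondary granule markers (Ltf, Ngp, Camp, Chil3, Cd177, Lcn2 and Olfm4), which are made in immature neutrophils, numbered 41 of 1309 in naive blood, 336 of 1650 at D11 and 747 of 1304 at D14. Within a library these cells had, by sign alone, higher levels of 8 of the 10 members than cells with at most 1 such marker. The share of all genes that were higher was not taken, so this count is no result about the members. For Hk2 the log2 ratio between these kinds was 1.30 (0.86 to 1.75) at D11, whereas at D14 the interval included 0, at 0.48 (-0.24 to 1.30). At D11 the log2 ratio between the 2 kinds was 1.49 (1.25 to 1.74) for Pgk1, 0.88 for Ldha and 0.69 for Hk3, and at D14 it was 1.19 (0.76 to 1.65), 0.94 and 1.24. Slc2a1 was the other way round, at -0.84 (-1.17 to -0.52) and -1.03 (-1.39 to -0.66). The granule-rich cells were also deeper, with a median of 5595 against 2950 UMIs at D11 and 5607 against 1708 at D14, and the part of depth in these ratios was not tested.

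Among the cells with at most 1 granule marker alone (1143, 1028 and 297 cells), Pgk1 was at 59.3 CPM in naive blood, 64.1 at D11 and 67.9 at D14, a D14 to naive log2 ratio of 0.19 (-0.29 to 0.66). Ldha was at 101, 105 and 100 CPM there, a ratio of -0.00 (-0.40 to 0.37). Hk2 was at 76.9, 21.5 and 25.1 CPM, the D11 ratio to naive being -1.84 (-2.24 to -1.46) and the D14 ratio -1.62 (-2.41 to -0.91). Slc2a1 was at 63.4, 90.9 and 121 CPM, and Hk3 at 136, 123 and 79.7 CPM. The D14 ratios of Slc2a3, at -0.19 (-0.36 to -0.03), Aldoa, at -0.49 (-0.80 to -0.20), and Eno1, at -0.76 (-1.39 to -0.18), were below 0. That of Slc2a1 was above 0, at 0.93 (0.56 to 1.30). In the cells with at most 1 granule marker the Hk2 ratios were thus past 2-fold, whereas the intervals of the Pgk1 and Ldha ratios included 0. At D14 Hk2 rested on 17 UMIs at a median depth of 1708, against 306 UMIs at 3370 in naive blood. The interval of that ratio reached -0.91, which is less than 2-fold. Shallow cells pass a limit on detected markers more readily, so the cells kept need not be the same kind in each library. The median depth of all neutrophil-like cells was 3478 UMIs in naive blood and 3882 at D14.

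**Figure D4:**
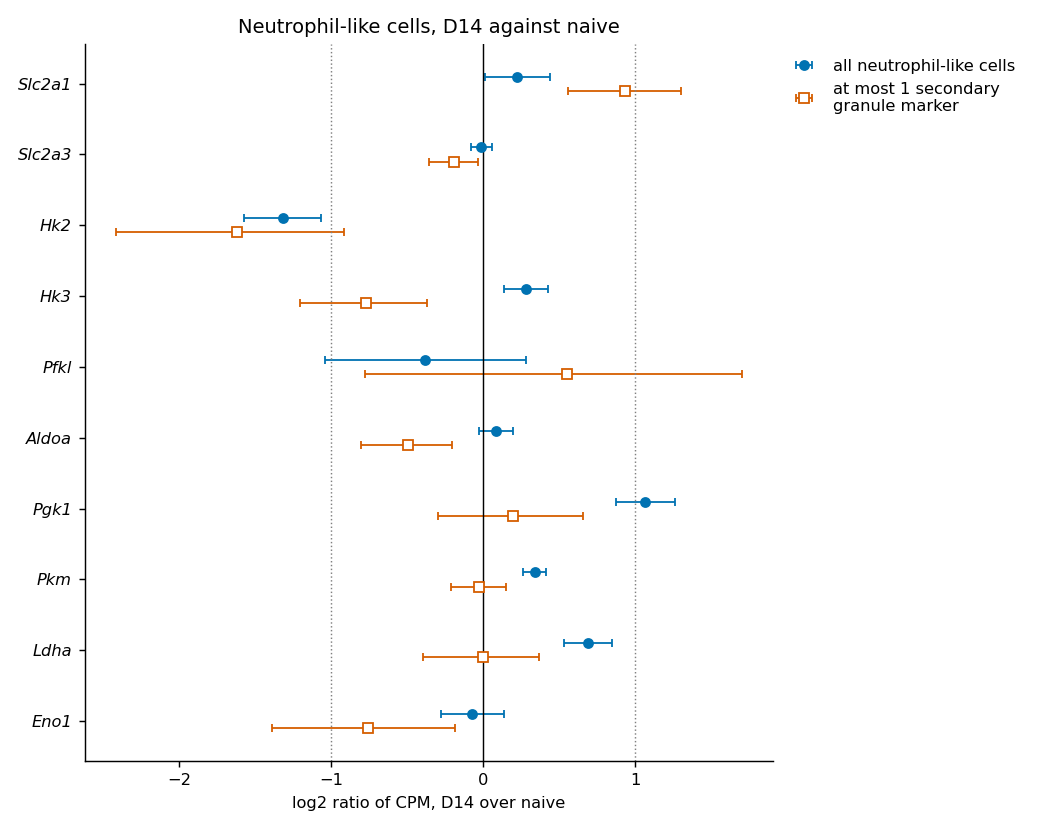
log2 ratio of CPM at D14 over naive (x axis) for each member in all neutrophil-like cells (filled circles) and in those with at most 1 secondary granule marker (open squares), with exact 95% conditional binomial intervals; dotted lines mark 2-fold. Pgk1 goes from 1.07 to 0.19 and Ldha from 0.69 to -0.00, whereas Hk2 is at -1.32 and -1.62.

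The cMono-like cells at D14 also differed in kind from the naive ones. Cells with at least 3 cycling markers made up 0.781%, 7.21% and 36.4% of the class (naive, D11 and D14), and the 8 progenitor markers summed to 63.8, 123 and 331 CPM. Among cMono-like cells with at most 1 cycling and at most 1 progenitor marker (117, 168 and 43 cells), Hk2 was at 134, 72.7 and 40.1 CPM and Pgk1 at 96.4, 166 and 185 CPM. Their D14 to naive log2 ratios were -1.75 (-2.36 to -1.18) and 0.94 (0.59 to 1.29), and those of Aldoa and Ldha 0.70 (0.46 to 0.94) and 0.45 (0.08 to 0.81). Pgk1 was thus below 2-fold in these cells, with an interval that still lay above 0.

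In naive blood the myeloid classes differed in their carriers and in Hk3. Naive cMono-like cells had 0 members past 2-fold above neutrophil-like cells and 3 below, and naive ncMono-like cells likewise 0 and 3, in both cases Slc2a1, Slc2a3 and Hk3. Of all genes, 33.7% were higher and 22.7% lower in cMono-like cells, and 35% and 18.3% in ncMono-like cells. Over the 9 members at 50 CPM the log2 ratios had a median of 0.04 and -0.79, and over all tested genes of 0.22 and 0.42. The 2 monocyte classes differed in 0 of 6 members, where 12.7% of all genes were higher and 9.5% lower in ncMono-like cells. The member closest to 2-fold was Aldoa, at -0.86 (-1.14 to -0.58). The balance depends on the scale: as UMIs per cell 6 members were higher and 2 lower in cMono-like than in neutrophil-like cells, and 4 higher and 2 lower in ncMono-like cells.

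At D14, leukemia-like cells had 1 member past 2-fold above neutrophil-like cells (Ldha) and 3 below (Slc2a1, Slc2a3 and Hk3) of 8, beside 51.9% and 25.4% of all genes. In this comparison 5 members were higher and 1 lower as UMIs per cell, and 0 higher and 5 lower with the sums rescaled by trimmed-mean (TMM) factors. Against ncMono-like cells 2 of 6 were higher (Slc2a3 and Pgk1) and 1 lower (Aldoa), beside 30.7% and 26.2%. Against cMono-like cells 1 of 7 was higher (Slc2a3) and 2 lower (Hk2 and Aldoa), beside 27.4% and 21%. Slc2a3, at 50.9 CPM in leukemia-like cells, was only just above the minimum of 50 CPM against both monocyte classes. Hk2, at 50.4 CPM in cMono-like cells, was also close to it. With cycling cells left out, 1 member was higher and 1 lower against cMono-like cells. Against the 42 B-like cells 4 of 7 were higher (Pgk1, Pkm, Ldha and Eno1) although Eno1 reached 50 CPM only in the leukemia, and Slc2a1 was lower, beside 28.2% and 19.7%. Over the members at 50 CPM the log2 ratios had a median of -0.65, 0.82, -0.40 and 2.04 in these 4 comparisons, and over all tested genes of 1.13, 0.21, 0.30 and 0.16. The B-like sum at D14 rested on 159 member UMIs, but at D11, with 276 B-like cells, the ratios over them were 3.32 (2.91 to 3.75) for Pgk1, 3.04 (2.74 to 3.36) for Ldha, 2.68 (2.42 to 2.96) for Pkm and 2.19 (1.77 to 2.63) for Eno1.

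**Figure D5:**
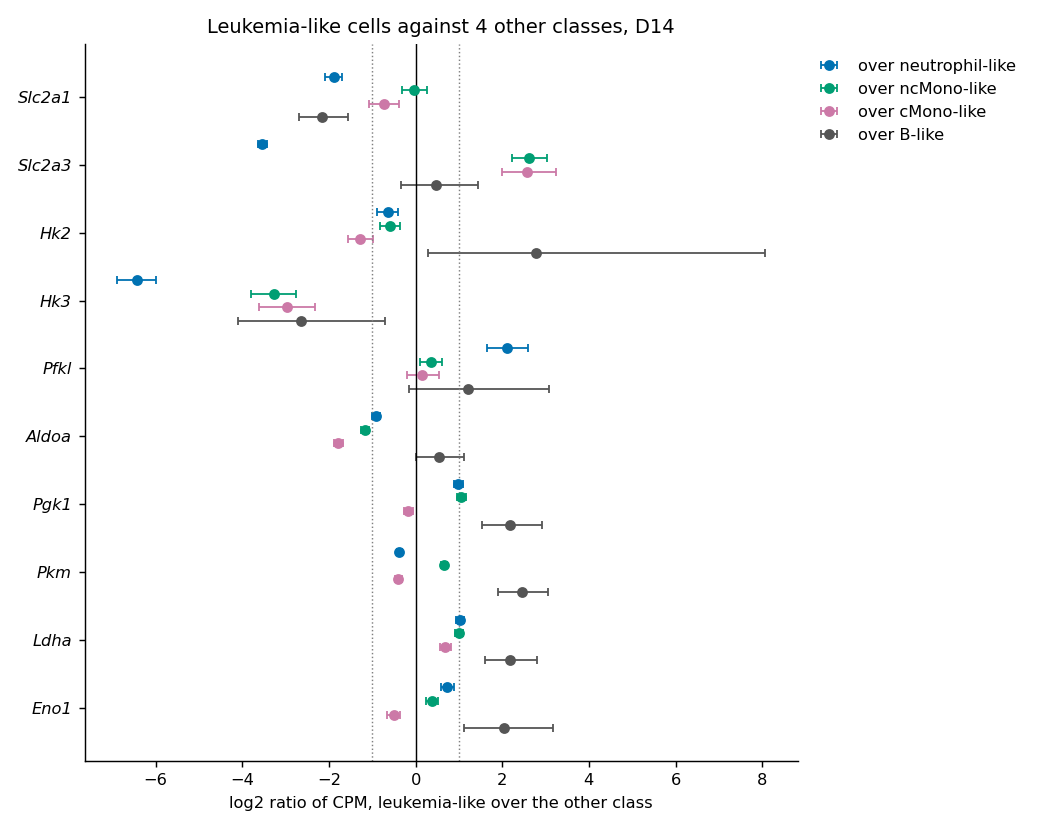
log2 ratio of CPM in leukemia-like cells over each of 4 other classes at D14 (x axis) for the 10 members, with exact 95% conditional binomial intervals; dotted lines mark 2-fold. Pgk1, Pkm, Ldha and Eno1 lie above 2 on the log2 scale over B-like cells, and Slc2a3 and Hk3 lie at -3.54 and -6.42 against neutrophil-like cells.

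Between D11 and D14 no member of the leukemia-like cells was past 2-fold (0 of 6, with 1.88% of all genes higher and 0.268% lower). Ldha differed by a log2 ratio of -0.42 (-0.50 to -0.34), Eno1 by -0.34 (-0.48 to -0.19) and Pgk1 by -0.22 (-0.32 to -0.12), while the interval for Pkm, at -0.06 (-0.14 to 0.02), included 0. Cells with at least 3 cycling markers made up 90.2% of the class at D11 and 76.6% at D14. Within the D14 library, the 543 cycling cells were above the 103 cells with at most 1 cycling marker in Eno1 (log2 ratio 0.60, 0.37 to 0.83), Ldha (0.55, 0.42 to 0.68), Pgk1 (0.47, 0.33 to 0.62) and Pkm (0.40, 0.30 to 0.51). Aldoa, at 0.03 (-0.15 to 0.22), and Slc2a3, at -0.33 (-0.60 to -0.06), were not higher there. The cycling cells were deeper, at a median of 34870 against 20667 UMIs, and its part in these ratios was not tested.

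Of the 11 other glycolytic enzymes on a list of pathway genes, 3 rose and 1 fell between naive and D14 cMono-like cells among 7 at 50 CPM, beside 4.65% and 3.94% of all genes. Those that rose were Gapdh (390, 714 and 1040 CPM), Pgam1 (121, 188 and 301) and Tpi1 (66.8, 104 and 147), which work in the middle and lower part of the route, and the one that fell was Ldhb, which was not past 2-fold among the cells with few cycling and progenitor markers. In neutrophil-like cells, where 7.61% of all genes rose, 2 of 4 did, Gapdh (286, 504 and 598 CPM) and Pgam1 (51.5, 81.0 and 121), and in ncMono-like cells, against 3.14% of all genes, 1 of 5, Pgam1 (68.4, 128 and 185). For Gapdh, Pgam1 and Tpi1 no sums over 1 kind of cell were made. The part of cycling or granule-rich cells in these rises was not tested. Gpi1, which makes fructose 6-phosphate, was at 305, 365 and 483 CPM in neutrophil-like cells against 109 and 112 in leukemia-like cells.

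Of 13 regulators and carriers, 2 of 6 at 50 CPM were higher and 3 lower in leukemia-like than in neutrophil-like cells at D14, beside 51.9% and 25.4% of all genes. Between naive and D14 blood 1 of 5 fell in neutrophil-like cells (Slc2a6, log2 ratio -1.01) and 1 of 4 in ncMono-like cells (Pfkfb4, -1.34), where 10.4% and 2.79% of all genes fell, and single genes of such short lists say little. For Slc2a6 and Pfkfb4 no sums over 1 kind of cell were made. The lactate carriers differed by class. Slc16a1, which encodes MCT1, was at 182 and 151 CPM in leukemia-like cells and at most 8.51 CPM in the 3 myeloid classes. Slc16a3, which encodes MCT4, was at 161, 176 and 142 CPM in neutrophil-like cells and at 0 and 0.399 CPM in leukemia-like cells. At D14 the log2 ratio of leukemia-like over neutrophil-like cells was 4.93 (4.43 to 5.49) for Slc16a1 and -8.47 (-9.61 to -7.54) for Slc16a3. The bifunctional regulator Pfkfb4 followed Slc16a3, with 258, 208 and 204 CPM in neutrophil-like cells and 3.77 and 5.14 in leukemia-like cells, whereas Pfkfb3 was between 88.3 and 134 CPM in both classes. Myc, a transcription factor that acts on many of these genes, was at 74.1 and 80.5 CPM in leukemia-like cells and at most 4.31 CPM in neutrophil-like and monocyte-like cells.

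Across 22 sums of a class and a library, the genes whose log2 levels went most closely with the summed members were Gmfg (Pearson r = 0.986), Atxn7l3b (0.983), Gnb2 (0.981), Ctnnb1 (0.977) and Hspa5 (0.976). These correlations are a description, since the sums share libraries, and they rested in part on the 3 erythroid-like sums, where hemoglobin took 89.4% to 91.2% of UMIs. Without these 3, r was 0.872, 0.860, 0.849, 0.823 and 0.817.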

How the data were processed

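Droplet libraries (10x 3′ v3) of PB were analysed from the count matrices that the authors deposited, which hold whole-number UMI counts per gene and barcode. The matrix headers name Cell Ranger 5.0.1 and the submitters' processing notes name Cell Ranger 7.1.0 and the mm10 build; filters beyond barcode calling are not given in the sources used here. A 3′ protocol counts transcript ends, so UMIs of different genes are not read as their relative transcript levels. The shares of gene pairs, also those of the hexokinases and lactate dehydrogenases, compare classes and libraries only. Deposited UMI totals per library were 30362408, 57640396 and 65861863.

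The members and all gene lists were chosen with earlier results of these data known. Named genes were the 10 members, and pathway genes past 2-fold or with a level that set classes apart. Counts were summed per class and library and divided by the sum of all genes to CPM. With 1 library per condition no test was made, and ratios are given with exact 95% intervals. A ratio with a side at 0 used a floor of 3 counts. The interval and gate code was tested on simulated counts. Doublets were not removed in the values reported; leaving out the barcodes scored highest by Scrublet (scanpy 1.11.5; 0.8% per 1000 barcodes) or those with 3 markers of a second class were alternatives, as were TMM factors (edgeR 4.0.16, factors only), other cell and gene filters, UMIs per cell and, chosen after seeing the data, sums without cycling cells, without cells holding at least 1% hemoglobin UMIs, and over 1 kind of cell. Gene positions are from GENCODE vM21 and upstream sequences from RefSeq.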

Additional observations from a re-analysis of the deposited data

Results flagged for a closer look

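For a pair of members the D14 to naive ratio went opposite ways in 2 myeloid classes, with both counting intervals off 0. Hk3 had a log2 ratio of 0.28 (0.14 to 0.43) in neutrophil-like cells and -0.62 (-1.19 to -0.01) in ncMono-like cells. Eno1 had a log2 ratio of -0.40 (-0.68 to -0.11) in ncMono-like cells and 0.30 (0.06 to 0.54) in cMono-like cells. Neither difference was tested, since each condition is 1 library. In neutrophil-like cells with at most 1 secondary granule marker the Hk3 ratio was -0.77 (-1.20 to -0.37), the opposite sign to that of the whole class. In cMono-like cells with at most 1 cycling and at most 1 progenitor marker the Eno1 ratio was 0.15 (-0.22 to 0.50), an interval that includes 0.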

How the results depend on the processing

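No paired analysis was possible because each group holds 1 library and no result comes from a test. Of 165 counts of members past 2-fold under alternatives, 142 stayed within 1.5 times the reported count. With a minimum of 200 CPM the counts were 2 (leukemia-like against neutrophil-like), 1 (against cMono-like), 3 (against B-like), 1 and 1 (naive cMono-like and ncMono-like against neutrophil-like), and 0, 1 and 1 (D14 against naive in neutrophil-like, ncMono-like and cMono-like cells). At 1.5-fold they were 7 and 5 (leukemia-like against neutrophil-like and ncMono-like), 6 and 6 (naive monocyte classes against neutrophil-like), 1 (naive ncMono-like against cMono-like) and 5 (cMono-like, D14 against naive). Counted as UMIs per cell they were 5 (leukemia-like against ncMono-like), 8 and 6 (naive cMono-like and ncMono-like against neutrophil-like), 4 (naive ncMono-like against cMono-like) and 5 (cMono-like, D14 against naive). TMM factors gave 5 (naive ncMono-like against neutrophil-like), the mean of per-cell CPM gave 1 (neutrophil-like, D14 against naive, where Pgk1 was at 0.83), and at least 500 genes with at most 5% mitochondrial UMIs gave 1 (leukemia-like against cMono-like). Without cycling cells the leukemia-like D14 to D11 comparison gave 4 and rests on 10 cells at D11. Of 948 member ratios, 2 were classed as reversed, both as UMIs per cell. These were Slc2a1 in leukemia-like over neutrophil-like cells (0.84) and Aldoa in leukemia-like over ncMono-like cells (0.43). Some ratios near 0 changed sign without being so classed. Eno1 in neutrophil-like cells, D14 against naive, went from -0.07 to 0.18 under TMM factors and 0.31 as UMIs per cell. Of 79 ratios, 40 were classed as moved under TMM factors and 68 as UMIs per cell. The direction of the calls also turned as UMIs per cell, with 5 higher and 1 lower for leukemia-like against neutrophil-like cells (reported 1 and 3), 6 and 2 for naive cMono-like and 4 and 2 for naive ncMono-like against neutrophil-like (reported 0 and 3 in both), and 5 and 0 for cMono-like, D14 against naive (reported 1 and 1). TMM factors gave 0 and 5 for leukemia-like against neutrophil-like cells. The causes were not tested.

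Under TMM factors the median over all genes moved by -0.85 (leukemia-like against neutrophil-like), -0.52 and -0.62 (naive cMono-like and ncMono-like against neutrophil-like), 0.25 and 0.18 (D14 against naive, neutrophil-like and ncMono-like), and the share of higher among called genes went from 67.2% to 53.8%, 59.7% to 43.5%, 65.6% to 44.5%, 42.3% to 63.3% and 53.0% to 70.8%. UMIs per cell took that share to 89.5%, 85.4%, 73.8% and 95% (leukemia-like against the 4 classes, from 67.2%, 54.0%, 56.6% and 58.9%), 91.6%, 88.8% and 17.3% (the naive comparisons, the last from 57.2%) and 74.5%, 83.5% and 97.2% (D14 against naive, the last from 54.2%), and leaving out ribosomal, mitochondrial and hemoglobin genes took the naive ncMono-like to cMono-like share to 45.8%. Hk2 stayed past 2-fold under TMM factors, at -1.07, -1.37 and -1.52 in neutrophil-like, ncMono-like and cMono-like cells, but as UMIs per cell it was at -0.93, -1.21 and -0.65, so that the call was lost in neutrophil-like and cMono-like cells. Depth limits Pfkl, Hk3 outside neutrophil-like cells and every B-like value at D14.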

Other observations

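The pentose phosphate branch, which leaves glycolysis at glucose 6-phosphate and yields NADPH, differed between leukemia-like and neutrophil-like cells. At D14 leukemia-like cells were below neutrophil-like cells in G6pdx (12.9 against 167 CPM), the entry enzyme, Pgd (45.8 against 337) and Taldo1 (100 against 905), and above them in Pgls (951 against 77.7), which opens the lactone made by the entry enzyme. Of the 7 genes on that list, 5 had at least 50 CPM in this comparison, 1 higher and 3 lower past 2-fold, beside 51.9% and 25.4% of all genes. In neutrophil-like cells Tkt was at 144, 247 and 368 CPM and Pgls at 31.8, 45.4 and 77.7 CPM in naive, D11 and D14 blood, and these were the 2 of 5 that rose, beside 7.61% of all genes. For Tkt and Pgls no sums over 1 kind of cell were made, and the part of granule-rich cells in these rises was not tested. No gene of the list was past 2-fold between D14 and naive in either monocyte class.

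On a list of 10 hypoxia response genes, 1 of 4 at 50 CPM fell in neutrophil-like cells between naive and D14 blood, Ndrg1 (109, 87.7 and 31.9 CPM), where 10.4% of all genes fell, and none of 4 was past 2-fold in either monocyte class. For Ndrg1 no sums over 1 kind of cell were made, and the part of granule-rich cells in this fall was not tested. Vegfa was at 66.2, 91.3 and 66.6 CPM in neutrophil-like cells and 51.2 and 65.5 in leukemia-like cells, and at most 5.83 CPM in monocyte-like cells.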
